A study of Mus musculus with 8 samples.

Results

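The lysosomal genes described here are 38 mouse genes that encode enzymes of the lysosome, proteins of its membrane, subunits of its proton pump and 1 regulator of the set. They were found by gene symbol in a table of raw counts for 55487 gene identifiers, and each of the 38 symbols matched 1 row. By role they comprise 11 proteases, 8 glycosidases, 9 genes of lipid handling and its cofactors, 6 membrane proteins, 3 subunits of the proton pump and the transcription factor Tfeb. The counts come from liver RNA of 8 mice labelled female, 1 library per mouse. The sex-linked counts of the library WT 3 went against that label, as given below. The WT group holds 4 mice aged 10.7, 12.3, 11.1 and 11.8 weeks. The Ercc1 group holds 2 mice aged 15.1 and 13.7 weeks with the genotype Ercc1 -/D, which pairs a null Ercc1 allele with a D allele, and the NemoDK_Ercc1 group holds 2 mice aged 11.8 weeks that carry the NEMO DK alteration on that same Ercc1 genotype. ERCC1 is a subunit of a DNA repair nuclease, and mice with this allele pair are a widely used model of accelerated ageing. NEMO, which Ikbkg encodes, belongs to the kinase complex upstream of NF-kB. The labels do not say what DK stands for or in which cells it acts, and no mouse carried NEMO DK alone, so its comparison here is always on the Ercc1 -/D genotype. Both Ercc1 mice were older than the other 6.

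Lysosomes are acidic organelles that break down proteins, glycans and lipids delivered by endocytosis, phagocytosis and autophagy. A vacuolar proton pump keeps them acidic, heavily glycosylated membrane proteins line them, and soluble hydrolases reach them through the mannose-6-phosphate sorting route. Many of these genes carry a short promoter element, the CLEAR element, bound by TFEB and its relatives, which move to the nucleus when the kinase mTORC1 is inactive. In liver, hepatocytes hold most of the tissue's lysosomes, while Kupffer cells and macrophages that enter from the blood are especially rich in them. Lysosomal beta-galactosidase, the product of Glb1, is the enzyme behind the senescence-associated beta-galactosidase stain.

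Library totals ran from 21556570 to 27812478 counts. Levels are given in CPM, counts scaled to a common library total with TMM normalization factors, which were 0.890 to 0.932 in WT and 1.09 to 1.10 in the other groups. Each of the 38 genes passed the filter on low counts that left 15598 genes, and the lowest count of any of them in any library was 8. Ercc1 itself measured 2.57 to 5.04 CPM in WT, and the 4 mutant libraries held 1.49 to 1.87 CPM of it. Ikbkg, the NEMO gene, measured 56.8 to 68.4 CPM in WT, 93.3 and 84.0 CPM in Ercc1, and 81.9 and 71.9 CPM in NemoDK_Ercc1, a log2 difference from Ercc1 of -0.20 ± 0.14 (edgeR adjusted p = 0.817). The labels do not say whether DK should change this RNA, so its level does not check the NemoDK label. The library WT 3, labelled female, held 0 Xist counts and 3087 counts of Y-linked genes, against 9331 to 15744 Xist counts in the other libraries. It went against its label and was the lowest of the WT libraries for 17 of the 38 genes, a count not made over all genes. The 10 hepatocyte markers were detected in all libraries, with a summed level of 109448 to 140095 CPM in WT, 89022 and 85484 CPM in Ercc1, and 84114 and 85241 CPM in NemoDK_Ercc1.

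Promoter sequences show how the genes differ in the core of the CLEAR element. RefSeq (GRCm38.p6) promoter windows of 300 bases, 250 before and 50 after the start site, were matched for 32 of the 38 genes. The letters CACGTG, which read the same on both strands, stood in a window of 11 of the 32 (34.4%): Ctsa, Ctsd, Ctsf, Ctsl, Lgmn, Gaa, Glb1, Naglu, Lamp1, Mcoln1 and Atp6v0d1. Among all 27025 genes with windows the share was 8.09%. The longer palindrome TCACGTGA, which contains CACGTG, stood in 4 of the 32 (12.5%), against 1.13% of all genes: Ctsa, Ctsd, Mcoln1 and Atp6v0d1. A match describes the letters of the window and does not show binding. The 5 windows below are shown because they span the range from 4 copies to none and the range of responses described further on, with CACGTG in capitals. Lamp1 (4 copies) is at chr8:13158911-13159210 on the plus strand, Mcoln1 (2 copies) at chr8:3500269-3500568 on the plus strand, Gaa (1 copy) at chr11:119267713-119268012 on the plus strand, Lgmn (1 copy, in 1 of its 2 windows) at chr12:102439043-102439342 on the minus strand, and Hexa (0 copies) at chr9:59539290-59539589 on the plus strand. Each is written 5′ to 3′ on the strand of its gene.
Lamp1: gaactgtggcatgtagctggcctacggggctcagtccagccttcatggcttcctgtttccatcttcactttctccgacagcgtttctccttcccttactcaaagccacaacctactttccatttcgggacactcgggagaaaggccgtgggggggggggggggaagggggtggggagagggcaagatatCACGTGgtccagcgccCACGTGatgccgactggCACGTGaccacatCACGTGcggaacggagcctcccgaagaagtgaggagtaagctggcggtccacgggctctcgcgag
Mcoln1: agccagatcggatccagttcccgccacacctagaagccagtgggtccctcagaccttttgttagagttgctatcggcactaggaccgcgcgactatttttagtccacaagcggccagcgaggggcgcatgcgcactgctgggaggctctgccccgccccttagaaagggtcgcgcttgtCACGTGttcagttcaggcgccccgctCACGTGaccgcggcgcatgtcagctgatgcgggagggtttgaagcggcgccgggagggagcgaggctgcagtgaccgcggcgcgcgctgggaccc
Gaa: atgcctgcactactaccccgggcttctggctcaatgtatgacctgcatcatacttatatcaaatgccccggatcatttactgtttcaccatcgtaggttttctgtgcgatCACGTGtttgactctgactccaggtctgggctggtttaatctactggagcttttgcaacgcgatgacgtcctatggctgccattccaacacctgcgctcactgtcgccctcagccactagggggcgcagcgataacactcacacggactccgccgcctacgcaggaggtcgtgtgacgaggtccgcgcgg
Lgmn: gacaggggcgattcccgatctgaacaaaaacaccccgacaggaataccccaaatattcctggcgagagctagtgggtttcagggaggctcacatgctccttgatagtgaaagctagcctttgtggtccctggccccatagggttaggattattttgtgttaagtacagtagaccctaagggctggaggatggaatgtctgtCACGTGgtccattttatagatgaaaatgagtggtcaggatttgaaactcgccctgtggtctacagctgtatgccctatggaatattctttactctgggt
Hexa: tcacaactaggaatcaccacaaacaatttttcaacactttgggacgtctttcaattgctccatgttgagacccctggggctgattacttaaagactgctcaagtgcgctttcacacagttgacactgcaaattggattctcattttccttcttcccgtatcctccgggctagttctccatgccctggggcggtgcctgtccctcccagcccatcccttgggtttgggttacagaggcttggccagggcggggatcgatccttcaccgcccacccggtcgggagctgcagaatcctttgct
The copies in Lamp1 lie 61, 45, 28 and 15 bases before the start site, those in Mcoln1 71 and 45 bases before it, and the single copies in Gaa and Lgmn 140 and 49 bases before it. Each start site is that of the window shown. For Lgmn this is a downstream start site inside the gene, and its other window, at chr12:102439679-102439978, holds 0 copies. Of these 5 genes, Lamp1 and Mcoln1 did not pass edgeR's test, Gaa fell, and Lgmn and Hexa rose, as described below. Over the 11 genes with CACGTG the median log2 fold change in Ercc1 against WT was -0.05, with 1 called higher and 1 lower, and over the 21 without it 0.14, with 2 called higher and 1 lower. For NemoDK_Ercc1 against WT the medians were 0.16 and 0.15. No test of this contrast was made.

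Levels per kilobase of exon spanned a wide range in WT liver. Lamp1, a major glycoprotein of the lysosomal membrane, stood first with a mean of 270.0 CPM per kb, followed by Psap, the precursor of the saposins that present sphingolipids to hydrolases, at 197. The cysteine proteases Ctsz and Ctsb (160.0 and 132 CPM per kb) and the aspartic protease Ctsd (87.5) came next. Those first 5 kept their order in the Ercc1 means. Tfeb (2.07), the cathepsin Ctsk (0.425), best known from osteoclasts, and the galactosylceramidase Galc (0.371) stood last. Summed over all 38 genes, the level ran from 5492 to 6415 CPM in WT, was 5559 and 6474 CPM in Ercc1, and 6302 and 6308 CPM in NemoDK_Ercc1, so both mutant groups lay within the WT range except for Ercc1 2, just above it. These sums depend on the TMM factors. As a plain share of each library's total count, with no such factor, the 38 genes took 0.558%, 0.574%, 0.511% and 0.544% in WT. That share was 0.611% and 0.708% in the Ercc1 libraries and 0.692% and 0.691% in the NemoDK_Ercc1 libraries. On that scale all 4 mutant libraries lay above all 4 WT libraries. The scale moves other genes upward as well. With library size alone, edgeR called 3765 of all tested genes higher and 690 lower in Ercc1 against WT at an adjusted p under 0.05. How many of all genes separated the libraries without a factor was not counted, so the separation is not shown to be particular to the 38.

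**Figure D1:**
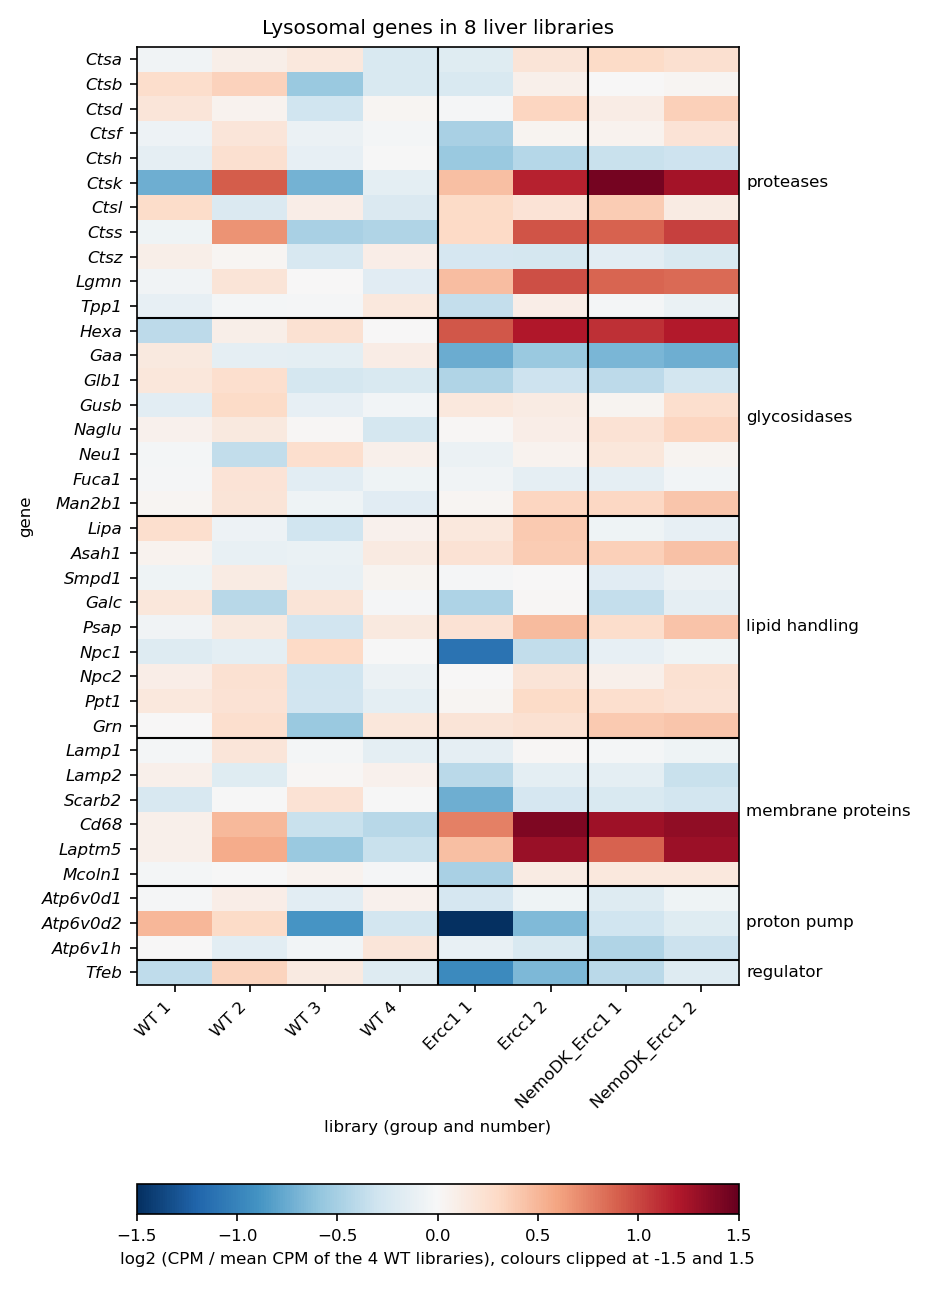
Heatmap of the 38 lysosomal genes (rows, grouped by role) in the 8 libraries (columns): colour gives the log2 ratio of a library's CPM to the mean CPM of the 4 WT libraries, clipped at -1.5 and 1.5. Most rows are pale; Hexa, Cd68, Laptm5, Lgmn, Ctss and Ctsk are red in the mutant libraries, Gaa is blue in all 4 of them, and Tfeb, Npc1 and Atp6v0d2 are darkest blue in Ercc1 1.

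In Ercc1 against WT, 3 of the 38 genes rose (7.89%; Hexa, Lgmn and Cd68) and 3 fell (7.89%; Gaa, Ctsh and Tfeb), at an adjusted p under 0.05 in edgeR's quasi-likelihood test over all 15598 genes. Over all tested genes 11.3% were called higher and 9.50% lower, so neither share of the lysosomal genes exceeded its background. In NemoDK_Ercc1 against WT, 5 rose (13.2%; Hexa, Lgmn, Cd68, Laptm5 and Asah1) and 1 fell (2.63%; Gaa), where the background was 10.6% and 7.40%. The 2 comparisons share the WT libraries. Hexa, Lgmn, Cd68 and Gaa were called in the same direction in both, and 30 of the 38 genes were called in neither. Without WT 3 the counts higher and lower were 3 and 4 in Ercc1 and 3 and 1 in NemoDK_Ercc1. Over all genes they were then 1845 and 1563 in Ercc1 and 1672 and 1344 in NemoDK_Ercc1. Scaling by library size alone placed the median of all genes at 0.26 and 0.27. It gave 9 of the 38 higher and 0 lower in Ercc1 and 14 higher and 1 lower in NemoDK_Ercc1. Of all 15598 genes it called 3765 higher and 690 lower in Ercc1, and 3508 and 490 in NemoDK_Ercc1. The median log2 fold change of the 38 was -0.01 in Ercc1 and 0.12 in NemoDK_Ercc1, against 0.00 over all genes in either comparison. In whole-liver RNA, a changed level of a gene can reflect more or fewer cells of a type or more or less RNA per cell, and the 2 cannot be told apart. With age as a covariate no lysosomal gene was called in Ercc1 against WT (24 and 17 of all genes were called higher and lower), and the standard errors grew. The fold changes with age were 1.01 ± 0.41 for Hexa, 0.96 ± 0.36 for Lgmn, 1.20 ± 0.62 for Cd68, -1.10 ± 0.49 for Tfeb, -0.79 ± 0.32 for Ctsh and -0.34 ± 0.29 for Gaa on the log2 scale, and Gaa alone of these 6 was nearer to 0 by more than 0.1 than without age. Both Ercc1 mice were older than all others, so genotype and age cannot be told apart in that comparison.

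**Figure D2:**
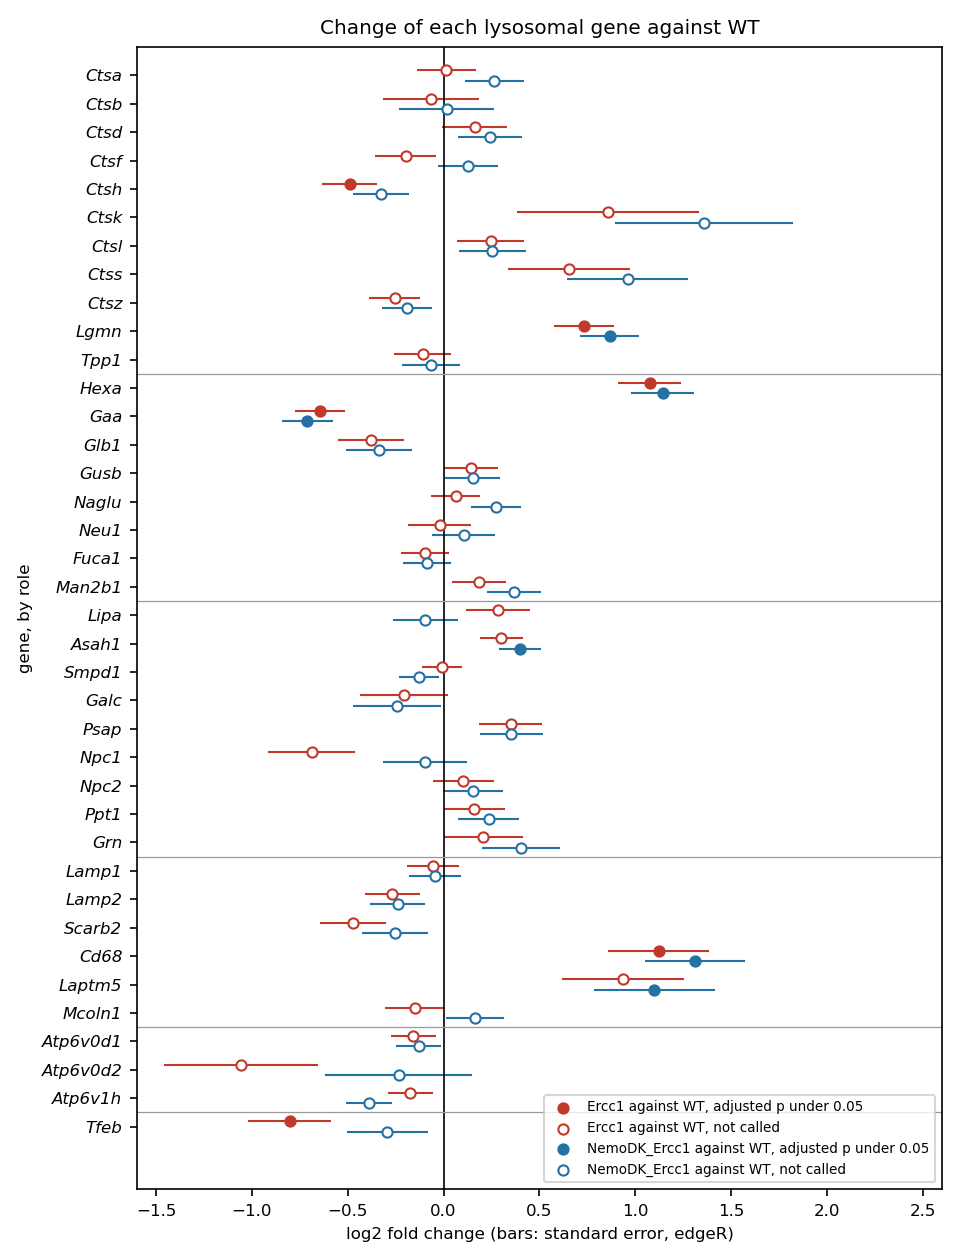
Log2 fold change of each of the 38 genes (rows, by role) in Ercc1 against WT (red) and NemoDK_Ercc1 against WT (blue), with bars of 1 standard error from edgeR; filled points have an adjusted p under 0.05. Hexa, Lgmn and Cd68 lie to the right of 0 and Gaa to the left in both comparisons, while Tfeb and Ctsh are filled in Ercc1 alone and Laptm5 and Asah1 in NemoDK_Ercc1 alone.

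Among the 11 proteases, Lgmn rose in both mutant groups and Ctsh fell in Ercc1. Lgmn (chr12:102394084-102439813 in GRCm38; gene positions are from GENCODE M21) encodes legumain, an endopeptidase that cuts after asparagine and processes other cathepsins. Its level was 55.7, 65.7, 57.9 and 51.1 CPM in WT, 79.1 and 112 CPM in Ercc1, and 106 and 104 CPM in NemoDK_Ercc1. All 4 mutant libraries lay above all 4 WT libraries. On the log2 scale the difference from WT was 0.73 ± 0.15 (SE) in Ercc1 (edgeR adjusted p = 0.0131), and it was 0.87 ± 0.15 in NemoDK_Ercc1 (adjusted p = 0.00760). Without Ercc1 2 the first was 0.46 (adjusted p = 0.0974), and without NemoDK_Ercc1 1 or 2 the second was 0.85 or 0.88 (adjusted p = 0.0739 or 0.0650).

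Ctsh (chr9:90054152-90076089), an aminopeptidase of the cathepsin family, went the other way. It measured 257, 334, 259 and 280.3 CPM in WT, 192 and 210.2 CPM in Ercc1, and 224 and 227 CPM in NemoDK_Ercc1. The mutant libraries lay below every WT library, and the Ercc1 pair lay lowest. The log2 fold change in Ercc1 was -0.49 ± 0.15 (edgeR adjusted p = 0.0444); in NemoDK_Ercc1 it was -0.33 ± 0.14 (adjusted p = 0.148), which did not pass. The Ercc1 call was close to the threshold and was lost in 12 of 17 alternative analyses, including those without any 1 of WT 1, WT 2, WT 4, Ercc1 1, Ercc1 2, NemoDK_Ercc1 1 and NemoDK_Ercc1 2 (adjusted p from 0.0549 to 0.218).

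Ctss, the cathepsin that trims the invariant chain of MHC class II in antigen-presenting cells, passed edgeR's test in neither mutant group. It stood at 33.6, 55.8, 25.1 and 25.7 CPM in WT, 43.0 and 67.2 CPM in Ercc1, and 64.8 and 71.5 CPM in NemoDK_Ercc1. NemoDK_Ercc1 did not overlap WT, but Ercc1 1 lay below WT 2. The log2 fold change was 0.65 ± 0.32 in Ercc1 (edgeR adjusted p = 0.178) and 0.96 ± 0.32 in NemoDK_Ercc1 (adjusted p = 0.0676), and without WT 2, the highest WT library, it was 0.97 and 1.27 (adjusted p = 0.0197 and 0.00845). Ctss was called in NemoDK_Ercc1 in 6 of 17 alternative analyses, among them DESeq2 (adjusted p = 0.0188) and limma-voom (adjusted p = 0.0492). Ctsk, the least abundant protease, resembled it at far lower levels, with 0.387 to 1.21 CPM in WT, 0.880 and 1.43 CPM in Ercc1, and 1.74 and 1.53 CPM in NemoDK_Ercc1. Its log2 fold change in NemoDK_Ercc1 was 1.36 ± 0.46 (adjusted p = 0.0757) and without WT 2 1.83 (adjusted p = 0.0170), and limma-voom called it too (1.49, adjusted p = 0.0385); in Ercc1 it was 0.86 ± 0.48 (adjusted p = 0.232) and without WT 2 1.33 (adjusted p = 0.0470).

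The remaining proteases, most of them abundant, did not pass edgeR's test in either comparison with WT. Ctsb ranged from 543 to 1013 CPM within WT alone, with the mutant libraries at 683 to 843 CPM inside that range. Its log2 fold change in Ercc1 was -0.06 with a 95% interval of -0.63 to 0.50. Ctsd, Ctsl, Ctsa, Ctsf, Ctsz and the tripeptidyl peptidase Tpp1 had log2 fold changes between -0.25 and 0.26 in those comparisons.

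The 8 glycosidases held the gene with the smallest adjusted p of the set, Hexa, and the gene that fell in both mutant groups, Gaa. Hexa (chr9:59539540-59565109) encodes the alpha chain of beta-hexosaminidase, which breaks down GM2 ganglioside and is deficient in Tay-Sachs disease. It measured 22.9, 31.9, 35.2 and 30.3 CPM in WT, 57.4 and 69.3 CPM in Ercc1, and 64.1 and 68.8 CPM in NemoDK_Ercc1. The lowest mutant library stood well above the highest WT library. Hexa rose by 1.08 ± 0.16 on the log2 scale in Ercc1, a 2.11-fold difference (edgeR adjusted p = 0.00356), and by 1.14 ± 0.16 in NemoDK_Ercc1, 2.21-fold (adjusted p = 0.00330). Its call in NemoDK_Ercc1 held in all 17 alternative analyses, and its call in Ercc1 in 16, with age as a covariate the exception (1.01 ± 0.41, adjusted p = 0.302). Exons of Hexa overlap those of Tmem202 on the other strand, and the strand setting of the counting is not given in the sources used here.

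Gaa (chr11:119267887-119285454) encodes acid alpha-glucosidase, which degrades glycogen in lysosomes and is deficient in Pompe disease. It stood at 125, 103, 102 and 122 CPM in WT, 67.7 and 77.0 CPM in Ercc1, and 70.1 and 68.1 CPM in NemoDK_Ercc1. The 4 mutant libraries lay together, all below WT. Gaa had a log2 fold change of -0.64 ± 0.13 in Ercc1 (edgeR adjusted p = 0.0113) and -0.71 ± 0.13 in NemoDK_Ercc1 (adjusted p = 0.00908). Without Ercc1 1 the Ercc1 value was -0.56 (adjusted p = 0.0938), and without NemoDK_Ercc1 1 or 2 the other was -0.73 or -0.69 (adjusted p = 0.0899 or 0.0991).

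Glb1 (chr9:114401076-114474898), the beta-galactosidase gene, was not higher in the mutants. It measured 22.1, 23.4, 16.3 and 16.8 CPM in WT, 14.3 and 15.8 CPM in Ercc1, and 14.9 and 16.2 CPM in NemoDK_Ercc1. The mutant libraries lay just below the lowest WT library. Its log2 fold change of -0.38 ± 0.17 in Ercc1 (edgeR adjusted p = 0.151) and -0.34 ± 0.17 in NemoDK_Ercc1 (adjusted p = 0.207) passed neither test. The 95% intervals ran from -0.77 to 0.01 and from -0.73 to 0.06. Exons of Glb1 overlap those of Tmppe on the same strand, so its counts are less certain. Cdkn1a, the p21 gene read as a sign of cell cycle arrest, stood at 104 and 66.2 CPM in the same 2 Ercc1 libraries. It stood at 45.4 and 40.5 CPM in the NemoDK_Ercc1 libraries, against 1.01 to 9.49 CPM in WT.

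The other 5 glycosidases did not pass edgeR's test. Man2b1, the lysosomal alpha-mannosidase, had a log2 fold change of 0.37 ± 0.14 in NemoDK_Ercc1 against WT (edgeR adjusted p = 0.102), with 143 and 154 CPM against 102 to 131 CPM. Gusb, Naglu, the sialidase Neu1 and the fucosidase Fuca1 lay between -0.10 and 0.27 in either comparison.

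**Figure D3:**
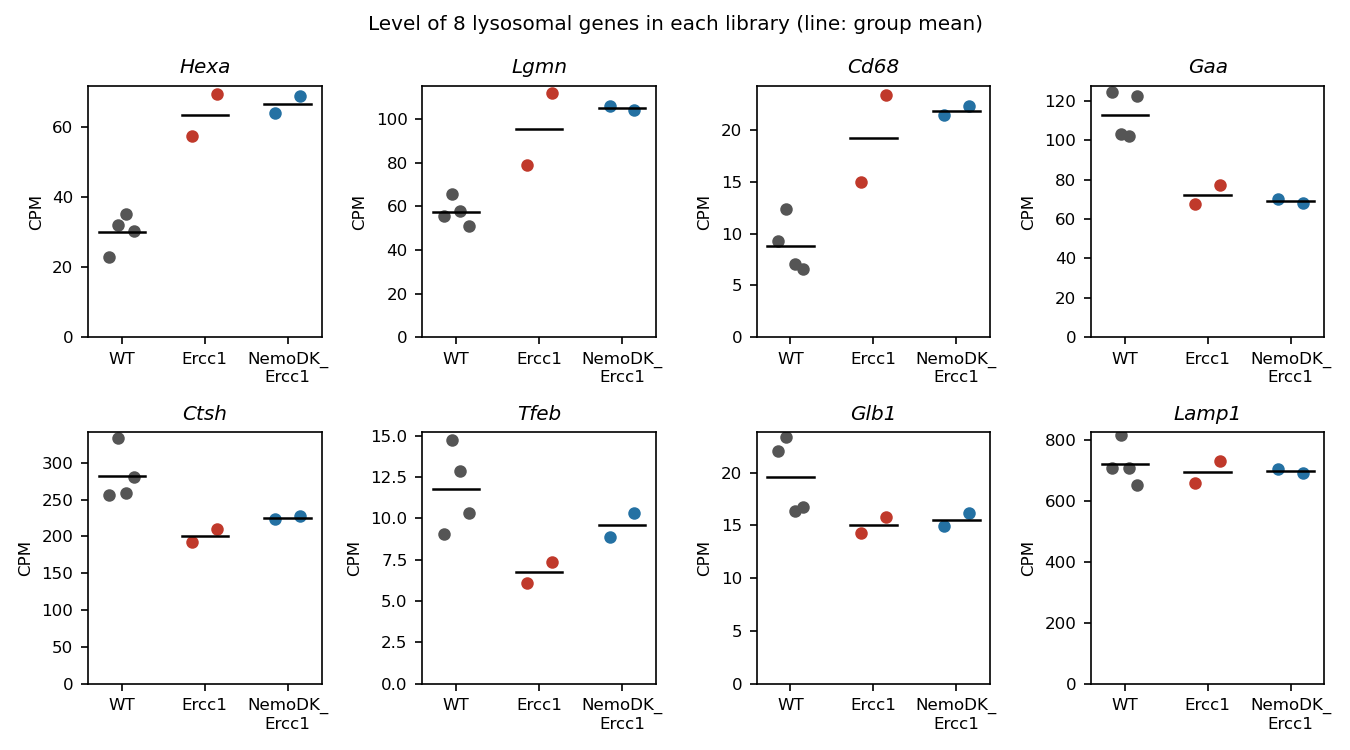
Level in CPM of 8 lysosomal genes in every library, by group, on axes that start at 0; each point is 1 mouse and each line a group mean. Hexa, Lgmn and Cd68 are higher and Gaa and Ctsh lower in each mutant library than in every WT library, Tfeb is lowest in the 2 Ercc1 libraries, the mutant libraries of Glb1 lie just under the lowest WT library, and Lamp1 overlaps throughout.

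Of the 9 genes of lipid handling, Asah1 alone passed edgeR's test, in NemoDK_Ercc1. Asah1 (chr8:41340197-41374773) encodes acid ceramidase, which splits ceramide into sphingosine and a fatty acid. It measured 37.6, 33.6, 33.9 and 39.7 CPM in WT, 42.0 and 47.2 CPM in Ercc1, and 46.4 and 48.9 CPM in NemoDK_Ercc1. The groups of mutants did not overlap WT, though the step was small. Asah1 had a log2 fold change of 0.40 ± 0.11 in NemoDK_Ercc1 (edgeR adjusted p = 0.0403) and 0.30 ± 0.11 in Ercc1 (adjusted p = 0.0871). The NemoDK_Ercc1 call was lost without any 1 of WT 1, WT 2, WT 3, NemoDK_Ercc1 1 and NemoDK_Ercc1 2 (adjusted p from 0.0597 to 0.249).

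Psap, at 521, 600.4, 442 and 598 CPM in WT, stood at 628 and 749.9 CPM in Ercc1 and at 651 and 729 CPM in NemoDK_Ercc1. All mutant libraries lay above WT, but the spread within WT was wide and the log2 fold change of 0.35 in each comparison did not pass (edgeR adjusted p = 0.162 and 0.167). Grn, the progranulin gene, whose product binds prosaposin on its way to the lysosome, had a log2 fold change of 0.40 ± 0.21 in NemoDK_Ercc1 (adjusted p = 0.204).

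Npc1, the membrane transporter that exports cholesterol from lysosomes, differed between the 2 Ercc1 mice. It measured 223, 231, 313 and 253 CPM in WT, 118 and 198 CPM in Ercc1, and 234 and 243 CPM in NemoDK_Ercc1. Both Ercc1 libraries lay below WT, and the NemoDK_Ercc1 libraries lay inside the WT range. The log2 fold change in Ercc1 was -0.69 ± 0.23 (edgeR adjusted p = 0.0613), and without Ercc1 2 it was -1.11 (adjusted p = 0.0257). With all libraries Npc1 was called lower in Ercc1 by DESeq2 (-0.68, adjusted p = 0.0146), by limma-voom (-0.72, adjusted p = 0.0423) and by edgeR with no filter on low counts (-0.69, adjusted p = 0.0236). Npc2, which hands cholesterol to NPC1, was at 0.10 and 0.15 in the 2 comparisons. Lipa, the acid lipase that frees that cholesterol from its esters, was at 0.28 ± 0.17 in Ercc1 (adjusted p = 0.256) and -0.09 ± 0.17 in NemoDK_Ercc1 (adjusted p = 0.734). The sphingomyelinase Smpd1, Galc and the thioesterase Ppt1 lay between -0.24 and 0.23.

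Among the 6 membrane proteins, the calls fell on the pair known from macrophages and other immune cells, Cd68 and Laptm5. Cd68 (chr11:69664213-69666153), a macrophage scavenger protein of the LAMP family, measured 9.35, 12.4, 7.03 and 6.64 CPM in WT, 15.0 and 23.5 CPM in Ercc1, and 21.5 and 22.4 CPM in NemoDK_Ercc1. No mutant library overlapped WT. Cd68 had a log2 fold change of 1.12 ± 0.26 in Ercc1 (edgeR adjusted p = 0.0189) and 1.31 ± 0.26 in NemoDK_Ercc1 (adjusted p = 0.0118). Without Ercc1 2 the first was 0.76 (adjusted p = 0.154), and without NemoDK_Ercc1 1 or 2 the second was 1.34 or 1.28 (adjusted p = 0.0819 or 0.0880).

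Laptm5 (chr4:130913125-130936141), a lysosomal membrane protein of blood cells, rose in NemoDK_Ercc1. It measured 15.1, 21.0, 9.74 and 11.3 CPM in WT, 19.5 and 35.0 CPM in Ercc1, and 26.5 and 34.6 CPM in NemoDK_Ercc1. Ercc1 1 lay below WT 2 and the other 3 mutant libraries above all WT. For Laptm5 the log2 fold change was 1.10 ± 0.32 in NemoDK_Ercc1 (edgeR adjusted p = 0.0448) and 0.94 ± 0.32 in Ercc1 (adjusted p = 0.0683). The first was lost without any 1 of WT 1, WT 3, WT 4, NemoDK_Ercc1 1 and NemoDK_Ercc1 2 (adjusted p from 0.0541 to 0.265), and the second passed without WT 2 (1.18, adjusted p = 0.0263), in DESeq2 (0.94, adjusted p = 0.0218) and with no filter on low counts (adjusted p = 0.00665).

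The summed markers of recruited macrophages were higher in every mutant library than in WT, while the Kupffer sum in Ercc1 1 lay inside the WT range. The 10 markers of monocytes and recruited macrophages summed to 80.4, 74.0, 59.3 and 71.4 CPM in WT, 126 and 187 CPM in Ercc1, and 148 and 172 CPM in NemoDK_Ercc1, and 8 of the 10 rose in Ercc1 and 7 in NemoDK_Ercc1. The 7 markers of Kupffer cells, the liver's resident macrophages, summed to 289, 472, 231 and 229.95 CPM in WT. Their sum was 333 and 581 CPM in Ercc1 and 541 and 579.8 CPM in NemoDK_Ercc1. Of these 7, 1 (14.3%) was called higher in Ercc1 and 2 (28.6%) in NemoDK_Ercc1, where 11.3% and 10.6% of all tested genes were. WT 2 was the highest WT library for Cd68, Laptm5, Ctss, Ctsk and Lgmn as well as for the Kupffer sum, and Ercc1 1 was the lowest mutant library for each of them. Lamp1, Psap and Ctsb had the same highest WT and lowest mutant library, so this pattern was not particular to genes known from macrophages. For the recruited macrophage sum, WT 1 was the highest WT library. No macrophage marker was at 0 in any library. Sums of markers of other immune cells were higher in most mutant libraries. The 5 markers of B and plasma cells summed to 4.21, 4.99, 4.63 and 5.56 CPM in WT, 5.20 and 14.9 CPM in Ercc1, and 16.3 and 14.3 CPM in NemoDK_Ercc1, where 3 of the 5 were called higher against WT and none in Ercc1 by edgeR. The neutrophil markers summed to 2.78 to 3.92 CPM in WT, 9.53 and 8.38 CPM in Ercc1, and at least 5.97 CPM in either NemoDK_Ercc1 library, with 3 and 1 of the 4 tested called higher. The part of macrophage or other immune cell RNA in the changes of Cd68, Laptm5, Ctss, Ctsk and Lgmn was not tested.

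**Figure D4:**
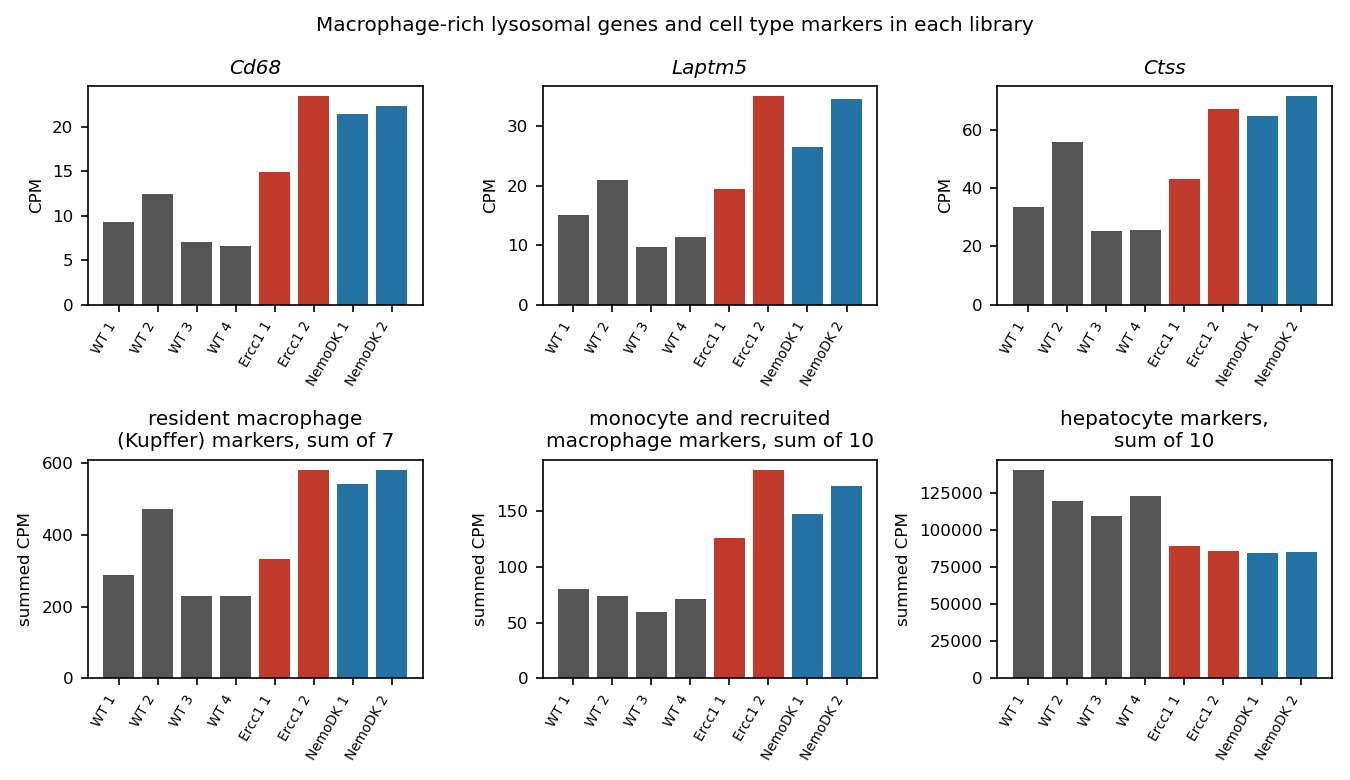
Bars of CPM per library for Cd68, Laptm5 and Ctss (top) and of summed CPM of marker lists for Kupffer cells, for monocytes and recruited macrophages, and for hepatocytes (bottom); NemoDK stands for NemoDK_Ercc1. WT 2 is the highest WT library and Ercc1 1 the lowest mutant library for the 3 genes and for the Kupffer sum, and hepatocyte markers sum to 84114 to 89022 CPM in the mutant libraries against at least 109448 CPM in WT.

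The other 4 membrane proteins did not pass edgeR's test. Lamp1 measured 708, 817, 709 and 654 CPM in WT, 659 and 733 CPM in Ercc1, and 706 and 693 CPM in NemoDK_Ercc1. The groups overlapped throughout, and the log2 fold change in Ercc1 was -0.05 with a 95% interval of -0.36 to 0.25. Lamp2, needed for autophagosomes to fuse with lysosomes, was at -0.27 ± 0.14 in Ercc1 and -0.24 ± 0.14 in NemoDK_Ercc1 (edgeR adjusted p = 0.215 and 0.276). Scarb2, the receptor that carries glucocerebrosidase to the lysosome, was at -0.47 ± 0.17 in Ercc1 (adjusted p = 0.0844), and DESeq2 called it lower (-0.46, adjusted p = 0.0479). Mcoln1, the calcium channel TRPML1, stood at 39.2 CPM in Ercc1 1 and 59.7 CPM in Ercc1 2 against 53.9 to 56.6 CPM in WT. Its log2 fold change in Ercc1 was -0.15 (adjusted p = 0.531), and without Ercc1 2 it was -0.48 (adjusted p = 0.0406), so the 2 Ercc1 mice lay on opposite sides of WT.

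None of the 3 proton pump subunits passed edgeR's test, though both Atp6v0d2 and Atp6v1h were called by DESeq2. Atp6v0d2, the subunit isoform known from osteoclasts and macrophages, measured 15.3, 13.2, 5.85 and 8.96 CPM in WT, 3.52 and 6.86 CPM in Ercc1, and 8.81 and 9.57 CPM in NemoDK_Ercc1. Its lowest WT library was WT 3, which lay below Ercc1 2. Its log2 fold change in Ercc1 was -1.06 ± 0.40 (edgeR adjusted p = 0.0948), and without WT 3 it was -1.25 (adjusted p = 0.0235). DESeq2 called it lower in Ercc1 (-1.05, adjusted p = 0.0288), as did edgeR with no filter on low counts (-1.05, adjusted p = 0.0186). The broadly used isoform Atp6v0d1 was at -0.16 and -0.13 in the 2 comparisons. Atp6v1h, a regulatory subunit, was at -0.39 ± 0.12 in NemoDK_Ercc1 (adjusted p = 0.0565), without WT 2 it was -0.44 (adjusted p = 0.0404), and DESeq2 called it lower there (-0.40, adjusted p = 0.0408).

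Tfeb (chr17:47737030-47792419), the transcription factor that drives many of the other genes, fell in Ercc1. It measured 9.06, 14.8, 12.9 and 10.3 CPM in WT, 6.08 and 7.37 CPM in Ercc1, and 8.88 and 10.3 CPM in NemoDK_Ercc1. The Ercc1 libraries lay below all others, and 1 NemoDK_Ercc1 library lay inside the WT range. For Tfeb the log2 fold change was -0.80 ± 0.22 in Ercc1 (edgeR adjusted p = 0.0332) and -0.29 ± 0.21 in NemoDK_Ercc1 (adjusted p = 0.368). The Ercc1 call was lost in 8 of 17 alternative analyses, among them those without any 1 of WT 2, Ercc1 1, Ercc1 2, NemoDK_Ercc1 1 and NemoDK_Ercc1 2 (adjusted p from 0.0507 to 0.192). RNA level does not measure the activity of TFEB, which is set largely by where the protein sits in the cell.

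NemoDK_Ercc1 against Ercc1 compares mice with and without the NEMO DK alteration on the Ercc1 -/D genotype. The groups also differed in age, 11.8 weeks against 15.1 and 13.7 weeks, so NEMO DK and age cannot be told apart here. None of the 38 lysosomal genes was called higher or lower in edgeR, and the background was 0% in each direction. Their lowest adjusted p was 0.730 and 1 of them, Npc1, had an unadjusted p under 0.05, as did 1062 of all tested genes. DESeq2 called none of the 38 either, and 33 and 36 of all genes higher and lower. Npc1 was at 0.59 ± 0.25, with a 95% interval of 0.01 to 1.17. With age as a covariate Npc1 was at -0.04, and 12 of the 38 estimates changed sign. Next by adjusted p came Tfeb at 0.51 ± 0.24 (adjusted p = 0.750), with a 95% interval of -0.05 to 1.07, and then Lipa, lower at -0.38 ± 0.19 (adjusted p = 0.759). For 32 of the 38 genes the 95% interval lay within 1 log2 unit of 0. With 2 mice per group, the data do not exclude true differences anywhere inside these intervals.

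The estimates leaned upward: 33 of the 38 (86.8%) were above 0, against 53.1% of all tested genes, with a median of 0.08 against 0.02. The Ercc1 libraries differed from each other in the same way, since 33 of the 38 genes were lower in Ercc1 1 than in Ercc1 2, and Ercc1 1 was the lowest of all 8 libraries for 13 genes. These counts were made over the 38 genes alone, so whether Ercc1 1 lay low over all genes is not shown. Without Ercc1 1, 18 of the 38 were above 0, with a median of -0.01, and under RLE factors with all libraries 28 were. The count above 0 was 32 without Ercc1 2, 31 without NemoDK_Ercc1 1, 25 without NemoDK_Ercc1 2 and 23 with age as a covariate. The lean was thus weakest without Ercc1 1, the oldest mouse at 15.1 weeks, and its cause was not tested. The share of all genes above 0 was not counted under these alternatives. Whether the weakening was particular to the 38 genes is therefore not shown. Where Tfeb and Ctsh were called in Ercc1 and not in NemoDK_Ercc1, and Laptm5 and Asah1 the reverse, this direct comparison found no difference between the mutant groups (adjusted p = 0.750, 0.884, 0.958 and 0.922), and such a p does not show that they were alike.

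Setting the 4 mutant libraries against the 4 WT libraries as a description, 5 genes had every mutant library above the highest WT library (Lgmn, Hexa, Asah1, Psap and Cd68; 13.2%), where 15.8% of all genes were. Another 3 were lower in every one (Ctsh, Gaa and Glb1; 7.89%), where 15.0% of all genes were. For the other 30 genes the ranges overlapped. By group, both NemoDK_Ercc1 libraries lay above all WT libraries for 13 genes (34.2%) and below for 4 (10.5%), where 24.8% and 22.1% of all genes did. Both Ercc1 libraries lay above for 5 (13.2%) and below for 7 (18.4%), where 21.3% of all genes did in each direction.

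The wider lysosomal and autophagy pathway was read from 6 further lists of 132 genes, of which 128 were tested. In Ercc1 against WT the counts called higher and lower were 2 and 2 of 30 further lysosomal hydrolases, 1 and 0 of 19 further membrane proteins, 2 and 0 of 17 further proton pump subunits, and 0 and 0 of 13 genes of sorting and mannose-6-phosphate tagging. They were 2 and 4 of 18 genes of MiT/TFE factors and mTORC1 signalling at the lysosome, and 1 and 7 of 31 autophagy genes. In NemoDK_Ercc1 against WT the counts in the same order were 4 and 1, 1 and 0, 2 and 0, 0 and 0, 0 and 2, and 0 and 5. None was called in NemoDK_Ercc1 against Ercc1 by edgeR, and Fnip2, described below, was called there in 2 alternative analyses. The background shares given above, 11.3% and 9.50% in Ercc1 and 10.6% and 7.40% in NemoDK_Ercc1, apply to these lists too.

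**Figure D5:**
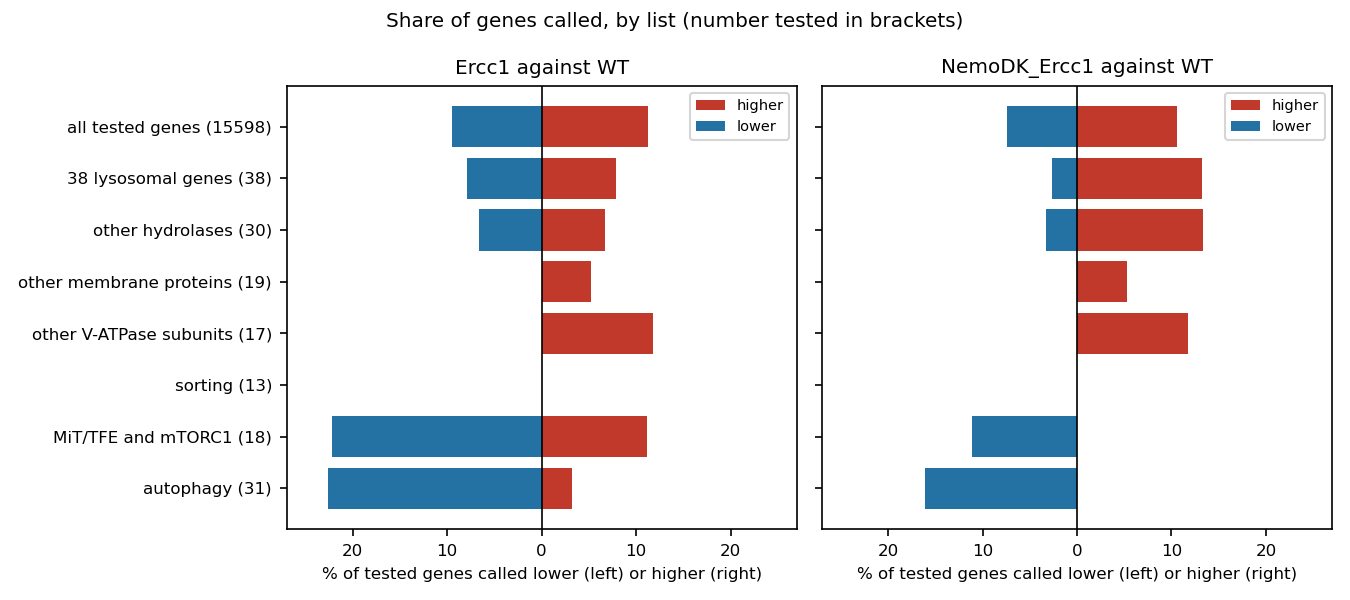
Percent of tested genes called lower (bars to the left) or higher (bars to the right) in each list, with the number tested in brackets, for Ercc1 against WT and NemoDK_Ercc1 against WT (edgeR, adjusted p under 0.05). The 38 lysosomal genes stand at 7.89% in each direction in Ercc1, below the bars of all tested genes (11.3% and 9.50%), and the autophagy list at 22.6% lower.

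The largest changes of the pathway lay outside the 38 genes. Galns, the sulfatase deficient in Morquio A disease, stood at 6.95 to 8.17 CPM in WT, where the mutant libraries held 21.4 to 27.8 CPM, with a log2 fold change in Ercc1 of 1.67 ± 0.13 (edgeR adjusted p = 0.000253). Atp6v0e2, a small isoform subunit of the pump, rose by 1.70 ± 0.16 (adjusted p = 0.000503), and Atp6v1b2 by 0.47 ± 0.10 (adjusted p = 0.0156). Cd63, a tetraspanin of late endosomes and lysosomes, rose by 1.77 ± 0.21 in Ercc1 and by 2.40 ± 0.21 in NemoDK_Ercc1 (adjusted p = 0.00142 and 0.000382). Of the further hydrolases Hyal1 and Gm2a, the activator that hands GM2 to the enzyme containing the Hexa product, fell in Ercc1 (-0.80 ± 0.17 and -0.95 ± 0.20; adjusted p = 0.0130 and 0.0135), and Hyal2 rose (0.44 ± 0.13, adjusted p = 0.0498). The Gm2a call was also lost without Ercc1 2 (adjusted p = 0.0585), and the Hyal2 call in 11 of 17 alternative analyses (adjusted p of 0.299 without Ercc1 2 and 0.0698 to 0.0902 without WT 1, WT 2 or WT 4). Hexa and the gene of its activator thus moved in opposite directions.

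Among regulators, Fnip2, a partner of folliculin, fell most. It measured 52.4, 64.5, 59.3 and 45.3 CPM in WT, 16.0 and 15.8 CPM in Ercc1, and 28.1 and 31.9 CPM in NemoDK_Ercc1. The 3 groups did not overlap, with NemoDK_Ercc1 in between, and the mutant groups also differed in age. Fnip2 had a log2 fold change in Ercc1 of -1.80 ± 0.16 (edgeR adjusted p = 0.000394), and NemoDK_Ercc1 against Ercc1 was 0.92 ± 0.17 without passing (adjusted p = 0.539). Fnip2 passed in that comparison in DESeq2 (0.90 ± 0.21, adjusted p = 0.0117) and in edgeR with no filter on low counts (0.91 ± 0.18, adjusted p = 0.0310), and in none of the other 15 alternative analyses. Flcn, the folliculin gene, which acts through Rag GTPases on TFEB, fell in Ercc1 (-1.30 ± 0.27, adjusted p = 0.0120), as did Rptor, the mTORC1 scaffold (-0.65 ± 0.13, adjusted p = 0.00972), while Rraga, a Rag GTPase, rose (0.46 ± 0.10, adjusted p = 0.0150).

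Of the autophagy genes, the starter kinases Ulk1 and Ulk2 fell in Ercc1 (-1.24 ± 0.24 and -0.62 ± 0.13; edgeR adjusted p = 0.00871 and 0.0111), and so did Uvrag, which acts in autophagosome maturation (-1.08 ± 0.21, adjusted p = 0.00910). Vps18, a subunit of the complexes that tether vesicles to late endosomes and lysosomes, rose (0.59 ± 0.11, adjusted p = 0.00714). Without Ercc1 1, the Ercc1 calls were lost for 11 of these further genes (Ulk1, Ulk2, Uvrag, Vps18, Flcn, Rptor, Rraga, Hyal1, Hyal2, Gm2a and Atp6v1b2; adjusted p from 0.0617 to 0.111), while those for Galns, Atp6v0e2, Cd63 and Fnip2 held. The lone Ercc1 library was then taken to vary like the other groups. With age as a covariate, the Ercc1 calls for Galns, Atp6v0e2, Cd63 and Fnip2 were lost too (edgeR adjusted p = 0.130, 0.112, 0.0598 and 0.0867). So were those for the 11 genes above.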

How the data were processed

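Liver RNA was prepared with Trizol and a stranded total RNA kit, per the labels' protocols. The authors deposited raw counts per gene; FastQC, HISAT2 2.1.0, featureCounts and the GRCm38/mm10 build are named in the submitters' processing notes, while the annotation release, strand setting and treatment of multiply aligned reads are not given in the sources used here. Exons of 3 of the 38 genes overlap another gene on the same strand (GENCODE M21) and of 11 on the other strand, so their counts are less certain.

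Tests used edgeR 4.0.16 under R 4.3.3, with filterByExpr on the 3 groups, TMM factors, and a quasi-likelihood fit of 1 mean per group to all 8 libraries (5 residual degrees of freedom). The 3 comparisons were adjusted by Benjamini-Hochberg over 15598 genes and called under 0.05. Each standard error divides the absolute log2 fold change by the square root of F. Mice are independent replicates, per the design text, and the labels pair none. The script was checked on simulated counts. Alternatives used DESeq2 1.42.0, limma 3.58.1 (voom), other scalings and filters, age, only the groups compared, and each library left out. The 38 genes and all lists were chosen with earlier results of these data known. All 38 are named; from each further list, up to 4 called genes with the smallest p in Ercc1 against WT are named. CPM are TMM-scaled; levels per kb use union exon length from GENCODE M21. Promoter windows are from RefSeq; 6 genes had no match. Plots used matplotlib 3.10.9 in Python 3.11.15.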

Additional observations from a re-analysis of the deposited data

How the results depend on the processing

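No paired analysis was possible because the labels pair no mice across groups. Of the 38 genes, Hexa was called higher in NemoDK_Ercc1 against WT under all 17 alternatives, and in Ercc1 against WT under 16. Scaling by library size alone moved the median of all genes to 0.26 in Ercc1 and 0.27 in NemoDK_Ercc1; lysosomal genes called higher became 9 and 14, none were lower in Ercc1, and all genes called became 3765 higher and 690 lower in Ercc1 and 3508 and 490 in NemoDK_Ercc1. With age as a covariate 0 lysosomal genes were called in either direction in Ercc1, and 24 and 17 of all genes. DESeq2 called 6 lysosomal genes lower in Ercc1 and 2 in NemoDK_Ercc1, where it called 1865 and 1647 of all genes lower. With only the 2 groups compared, 1 lysosomal gene was left lower in Ercc1, and 1018 of all genes. The reported edgeR fit called 1482 and 1154 of all genes lower in Ercc1 and NemoDK_Ercc1. In NemoDK_Ercc1 against Ercc1, all genes called higher and lower were 28 and 37 with no filter on low counts and 33 and 36 with DESeq2, and 1 higher with only the 2 groups compared.

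Leaving out 1 library at a time gave 1 to 6 lysosomal genes higher and 0 to 4 lower in Ercc1, and 1 to 6 higher and 0 to 2 lower in NemoDK_Ercc1 against WT. Without WT 3, whose sex markers went against its label, these were 3, 4, 3 and 1. Over all genes the ranges were 774 to 1845 higher and 383 to 1563 lower in Ercc1, 380 to 1672 and 157 to 1344 in NemoDK_Ercc1, and 0 to 2 higher and 0 lower between the mutant groups.

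Over the 38 genes and 3 comparisons, 141 of 1938 alternative values had the opposite sign to the reported one, and none of them was called. Of the 141, 120 were of values within 1 SE of 0, 67 came with a library left out, and 23 of those without Ercc1 1. Among the 120, the furthest from 0 came with age: in Ercc1 against WT 0.81 for Galc (from -0.21), 0.50 for Neu1 (from -0.02), -0.33 for Gusb (from 0.14) and 0.33 for Mcoln1 (from -0.15), and in NemoDK_Ercc1 against Ercc1 -0.46 for Ctsl (from 0.01), -0.35 for Lamp2 (from 0.03) and -0.34 for Neu1 (from 0.13). Values reported more than 1 SE from 0 that changed sign follow, including 4 genes outside the 38. With library size alone they became, in Ercc1 against WT, 0.0687 for Ctsf, 0.0130 for Ctsz, 0.109 for Atp6v0d1 and 0.0918 for Atp6v1h, and in NemoDK_Ercc1 against WT 0.0770 for Ctsz, 0.139 for Smpd1, 0.0238 for Galc, 0.0278 for Lamp2, 0.0107 for Scarb2 and 0.138 for Atp6v0d1. With age they became, in Ercc1 against WT, -0.0662 for Ctsk, 0.0229 for Npc1, -0.266 for Grn and 0.158 for Lamp2, and in NemoDK_Ercc1 against Ercc1 -0.0237 for Ctsa, 0.0750 for Smpd1, -0.0403 for Npc1, -0.0463 for Scarb2, -0.118 for Mcoln1, -0.579 for Ulk1, -0.0330 for Hyal1, -0.190 for Cd63 and -0.343 for Flcn. Leaving out 1 library, such values ranged over -0.488 to 0.0391 for Ctsf in Ercc1 against WT and -0.000566 to 0.473 for Scarb2 in NemoDK_Ercc1 against Ercc1. The causes were not tested beyond what each alternative changes by construction.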
